A study of Homo sapiens with 11 samples.

Results

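The genes described here are 5 transcription factors that drive epithelial-mesenchymal transition (EMT), ZEB1, ZEB2, SNAI1, SNAI2 and TWIST1, taken by name from a deposited table of 57773 genes measured by RNA-Seq in HCC78, a lung adenocarcinoma cell line with an SLC34A2-ROS1 fusion. HCC78 carries an endogenous S34F mutation of the splicing factor U2AF1, so every group below holds both the wild-type and the mutant allele. Stable derivatives of the line received a tagged wild-type (WT) or S34F mutant U2AF1 in a lentiviral vector that doxycycline (dox) switches on. The 9 libraries were 2 from the WT line with doxycycline (WT dox+) and 2 without (WT dox-), 2 from the S34F line with doxycycline (S34F dox+) and 1 without (S34F dox-), and 2 from the parental cells, which the sample labels place without doxycycline and a supplementary header of the study with it. S34F made up 62% and 65% of U2AF1 mRNA in S34F dox+ and 12% and 14% in WT dox+ according to the sample labels. It made up 28% to 33% in the other 5 libraries. The number of derivatives behind each transduced line is not stated. A difference between the S34F and the WT line therefore cannot be told apart from a difference between derivatives. Nothing states whether replicates were separate cultures, and p-values then measure only the spread between these libraries. The question was whether the EMT factors, their splicing, or the genes they act on differed when mutant U2AF1 was expressed.

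EMT factors bind E-box sequences in the promoters of epithelial genes such as CDH1, which encodes E-cadherin, and recruit corepressors that silence them. ZEB1 and ZEB2 are zinc finger-homeobox repressors, SNAI1 (Snail) and SNAI2 (Slug) are zinc finger repressors, and TWIST1 is a basic helix-loop-helix factor that pairs with E proteins such as TCF3. The microRNAs of the miR-200 family repress ZEB1 and ZEB2 mRNAs, which in turn repress the genes of these microRNAs.

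The sequences of the circuit around ZEB1 and ZEB2 are given first, from RefSeq on GRCh38.p14. The 5 microRNAs of the miR-200 family fall into 2 groups by their seed, bases 2 to 8, which is in capitals and is the stretch that pairs with a target mRNA.

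miR-141-3p: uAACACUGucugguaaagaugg
miR-200a-3p: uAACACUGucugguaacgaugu
miR-200b-3p: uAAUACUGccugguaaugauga
miR-200c-3p: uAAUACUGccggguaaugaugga
miR-429: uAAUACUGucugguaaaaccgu

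The genes of these microRNAs, MIR200A, MIR200B, MIR200C, MIR141 and MIR429, were listed at 0 FPKM (fragments per kilobase, scaled to the size of the library) in all 9 libraries. The libraries were made from total RNA for whole transcripts, and the mature microRNAs were not measured. MIR205HG, the host transcript of another microRNA that represses the ZEB factors, ranged from 0.26 FPKM in S34F dox+ replicate 1 to 5.22 FPKM in S34F dox+ replicate 2.

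The E-box was searched as CACCTG or CAGGTG, the same site read on either strand, in RefSeq promoter windows of 300 bases that run from 250 bases before a transcription start to 50 after it. Of 35116 such windows, 20.6% held at least 1 E-box and 3.49% at least 2. ZEB1 had 7 windows in the table and ZEB2 had 1, and 2 of these 8 windows held an E-box, both of ZEB1. SNAI1, SNAI2 and TWIST1 had none in the table. The E-boxes of ZEB1 are in capitals.

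ZEB1, chr10:31318350-31318375: gaggtgacagCAGGTGagggccgggt
ZEB1, chr10:31318966-31318989: ccccaccaCACCTGaggaaaactt
ZEB1, chr10:31319121-31319146: tgtcgtaaacCAGGTGcggtggggag
ZEB1, chr10:31319239-31319264: cggatggcccCAGGTGtaagcgcaga

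The first lies 57 bases before the start of its window's transcript, on the plus strand. The other 3 belong to 1 window, and 2 of them also lie in a window of the antisense gene ZEB1-AS1, with which that window shared 220 bases. Among 22 epithelial genes listed beforehand as targets of these factors, 10 had a window in the table and 8 of the 10 held an E-box. Counted by window, 10 of their 13 windows held an E-box, beside 20.6% of all windows. CDH1 had no window in the table. The sites of DSP (desmoplakin, a desmosome protein) and OCLN (occludin, a tight junction protein) are shown because these genes had the lowest p of the list in the comparison of S34F dox+ with WT dox+.

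DSP, chr6:7541483-7541508: gcggcgggcgCAGGTGgggaggggcg
DSP, chr6:7541576-7541601: agaaaccggcCAGGTGtggcctaggc
OCLN, chr5:69492504-69492529: atccgagtttCAGGTGaattggtcac
OCLN, chr5:69492647-69492672: taggacgcagCAGGTGggactcgcgg
OCLN, chr5:69492815-69492839: ggtgcggcgtCAGGTGcgcccgcca

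A match of these letters is a description of the sequence. Binding of the factors was not measured.

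All 5 factors were at low levels. Mean FPKM over the 9 libraries was 2.19 for ZEB1 (ENSG00000148516.17), 1.57 for ZEB2 (ENSG00000169554.12), 1.24 for SNAI1 (ENSG00000124216.3), 0.813 for SNAI2 (ENSG00000019549.4) and 0.0711 for TWIST1 (ENSG00000122691.8). Of 20327 protein-coding genes, 46.8% had a lower mean than ZEB1 and 7.74% a lower mean than TWIST1. ZEB1, ZEB2 and SNAI1 had a mean of at least 1 FPKM, the minimum used for the test across genes, and SNAI2 and TWIST1 did not. Levels lay under 1 FPKM in 2 libraries for ZEB1, in 4 for ZEB2, in 3 for SNAI1, in 7 for SNAI2 and in all 9 for TWIST1. Over the 9 libraries the SD was 1.61 FPKM for ZEB1, 1.04 for ZEB2, 0.431 for SNAI1, 0.292 for SNAI2 and 0.0997 for TWIST1. ZEB1 and ZEB2, and ZEB2 and SNAI1, lay closer to each other than their spread, and TWIST1 lay apart from SNAI2 by more than either SD. The table holds no counts, so the reads behind these levels are unknown. Depth relative to parental replicate 1 ran from 0.599 in S34F dox+ replicate 2 to 2.50 in S34F dox-. It was estimated as the most common ratio of FPKM in parental replicate 1 to FPKM in the library. Only genes above a floor and under 1 FPKM in both libraries were used. A shift in the level of low genes would also move this estimate.

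ZEB1 was 3.37 and 3.03 FPKM in WT dox+ and 1.53 and 5.69 FPKM in S34F dox+. Without induction it was 1.22 and 1.83 FPKM in WT dox-, 0.93 FPKM in S34F dox- and 0.49 and 1.59 FPKM in the parental line. The highest and the lowest of the 4 induced libraries were both S34F dox+ replicates, so the range of S34F dox+ enclosed WT dox+.

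ZEB2 was 1.87 and 3.38 FPKM in WT dox+ and 1.94 and 2.32 FPKM in S34F dox+. It was 0.76 and 0.49 FPKM in WT dox-, 0.19 FPKM in S34F dox- and 2.23 and 0.91 FPKM in the parental line. The 4 induced libraries lay above the 3 uninduced libraries of the same lines, while the parental libraries lay in between or within the induced range.

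SNAI1 was 0.42 and 0.91 FPKM in WT dox+ and 1.13 and 1.58 FPKM in S34F dox+. It was 1.36 and 1.70 FPKM in WT dox-, 1.65 FPKM in S34F dox- and 0.91 and 1.51 FPKM in the parental line. WT dox+ held the lowest SNAI1 value, and its other replicate tied with a parental library.

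SNAI2 was 0.82 and 1.06 FPKM in WT dox+, 0.76 and 1.39 FPKM in S34F dox+, and 0.80 FPKM in both WT dox- libraries. It was 0.61 FPKM in S34F dox- and 0.76 and 0.32 FPKM in the parental line. The 2 induced groups overlapped. TWIST1 was listed at 0 in 5 libraries and reached 0.24 FPKM in WT dox+ replicate 1, 0.23 FPKM in parental replicate 1 and 0.08 and 0.09 FPKM in S34F dox+, so every group held it at or near 0.

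**Figure D1:**
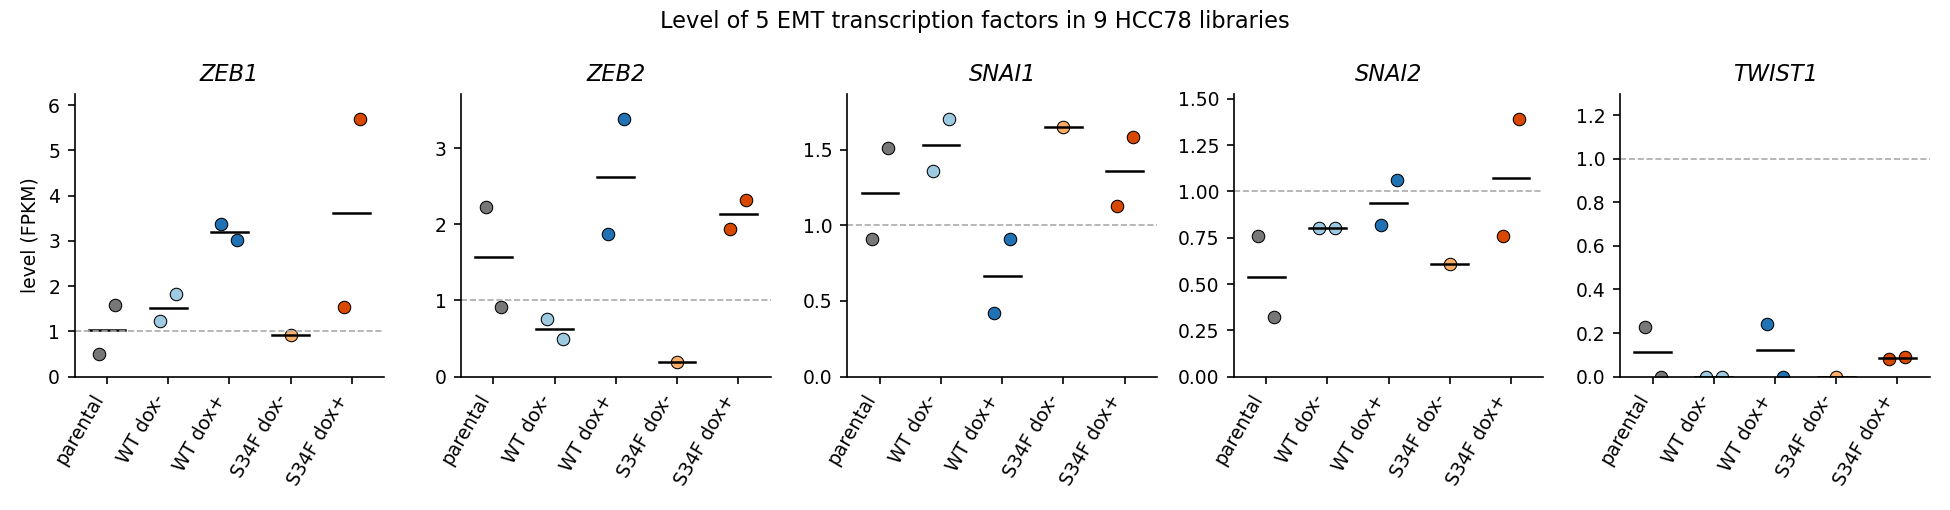
Level of each factor in FPKM (vertical axis, from 0, with its own scale in each panel) in the 5 groups (horizontal axis). Points are libraries, black bars are group means and the dashed line marks 1 FPKM. ZEB2 is between 1.87 and 3.38 FPKM in the 4 dox+ libraries and at most 0.76 FPKM in the 3 dox- libraries, and TWIST1 stays at or below 0.24 FPKM.

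S34F dox+ and WT dox+ differ in the allele that was induced. They also differed in U2AF1 level, at 164 and 223 FPKM in S34F dox+ and 278 and 299 FPKM in WT dox+. Between these groups 0 of the 3 factors tested passed an adjusted p of 0.05, against 0.0527% of the 15179 genes tested (8 genes). None of the 3 had an unadjusted p under 0.05. Values were compared as log2(FPKM + 1) with limma, and a difference on this scale understates the change of genes this low. ZEB1 differed by -0.03 (SE 0.49, adjusted p = 1 from limma), with a 95% interval from -1.17 to 1.12. ZEB2 differed by -0.18 (SE 0.39, adjusted p = 0.962), with an interval from -1.09 to 0.72. The intervals are wide and leave room for a change of more than a log2 unit in either direction for ZEB1. As each induced library was left out in turn, the ZEB1 difference was -0.73 when S34F dox+ lost replicate 2 and 0.67 when it lost replicate 1, and the ZEB2 difference was 0.12 when WT dox+ lost replicate 2.

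SNAI1 was higher in both S34F dox+ libraries than in both WT dox+ libraries, with a ratio of mean FPKM of 2.04. The same order was seen in 20.5% of the genes tested, and in 20.6% of the 3720 genes with a mean of 1 to 3 FPKM. The fitted difference for SNAI1 was 0.51 (SE 0.35, unadjusted p = 0.185, adjusted p = 0.819 from limma) and lay between 0.30 and 0.72 as single libraries were left out. An exact permutation test of 2 against 2 libraries gave p = 0.333, the smallest it allows. In a fit over all 42789 genes above 0 in at least 1 library, of which 0.00701% passed, SNAI2 differed by 0.08 (SE 0.29, adjusted p = 1 from limma) and TWIST1 by -0.04 (SE 0.14, adjusted p = 1).

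With doxycycline, ZEB1 and ZEB2 took higher values than without it in both lines, and SNAI1 took lower ones. In WT dox+ against WT dox-, the difference was 0.74 for ZEB1 (SE 0.49, adjusted p = 0.521 from limma), 1.13 for ZEB2 (SE 0.39, unadjusted p = 0.0206, adjusted p = 0.274) and -0.62 for SNAI1 (SE 0.35, adjusted p = 0.457). None passed, against 0.0132% of all genes, although the 2 WT groups did not overlap for any of the 3. Both WT dox+ libraries were higher in 28.9% of the genes tested and lower in 20.8%. These shares cover genes of all levels, and low genes may differ from them. In S34F dox+ against the single S34F dox- library, which is assumed to vary like the other groups, the difference was 1.09 for ZEB1 (SE 0.60, adjusted p = 0.415), 1.39 for ZEB2 (SE 0.48, unadjusted p = 0.0201, adjusted p = 0.244) and -0.18 for SNAI1 (SE 0.43, adjusted p = 0.869), against 0.283% of genes that passed. The test of whether the 2 doxycycline responses differed gave 0.35 for ZEB1, 0.26 for ZEB2 and 0.44 for SNAI1, with SEs of 0.78, 0.61 and 0.55 and an adjusted p of 1 for each, against 0.0264% of genes that passed.

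The mean of the 2 responses was added as a contrast after the values had been seen, and it reuses the same libraries. The difference for ZEB2 was 1.26 (SE 0.31, unadjusted p = 0.00379, adjusted p = 0.0641 from limma), and 3.88% of all genes tested passed in this contrast. It passed with a pseudocount of 0.1 FPKM (adjusted p = 0.0418) and with protein-coding genes only (adjusted p = 0.0306), and did not pass under the other settings tried. The difference was 0.92 for ZEB1 (SE 0.39, adjusted p = 0.195) and -0.40 for SNAI1 (SE 0.28, adjusted p = 0.404). Leaving out S34F dox+ replicate 2 gave 0.57 for ZEB1 and 1.22 for ZEB2. The exact permutation p of 4 against 3 libraries was 0.0571 for ZEB2, the smallest this shuffle allows, and 0.114 for ZEB1 and for SNAI1. Unlike the fit, the shuffle did not keep the 2 lines apart.

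Low genes as a class lay higher in the dox+ libraries. Every dox+ library was above every dox- library in 15.2% of the genes tested and in 21.4% of those with a mean of 1 to 3 FPKM, where the opposite order was seen in 1.13%. The 4 dox+ libraries listed 15736 to 20896 genes at 1 FPKM or above and the other 5 listed 13661 to 14688, and the highest number belonged to S34F dox+ replicate 2, the library with the highest ZEB1. Of 9 fibroblast markers 3 had a mean of at least 1 FPKM, and the sum of the 9 was 9.8 to 15.5 FPKM in the dox+ libraries and 4.78 to 9.0 FPKM in the others, with POSTN at or near 0 throughout. Of 4 immune and endothelial markers found in the table, 1, PTPRC, had a mean above 1 FPKM. The sum of the 4 was 1.68 to 5.66 FPKM in the dox+ libraries and 0.31 to 2.17 FPKM in the others. The part of these shifts in the levels of ZEB1 and ZEB2 was not tested, and fewer expressing cells and less RNA per cell cannot be told apart in bulk RNA.

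**Figure D2:**
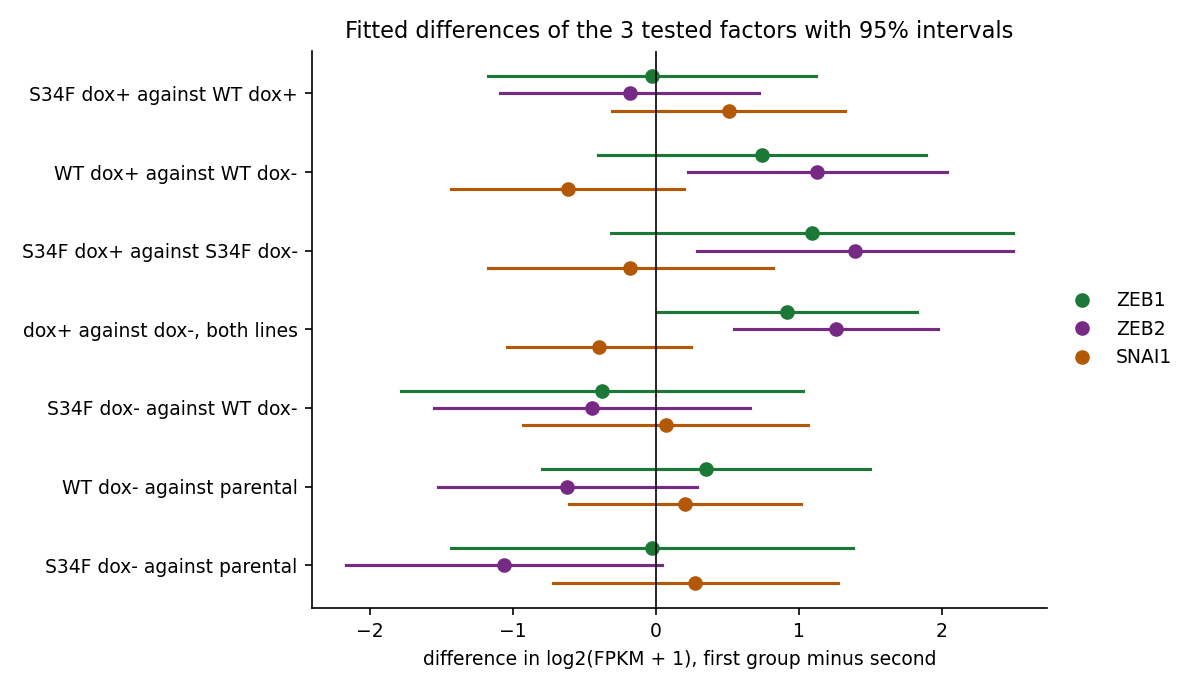
Fitted difference in log2(FPKM + 1) (horizontal axis, first group minus second) for ZEB1, ZEB2 and SNAI1 in each comparison (vertical axis). Points are estimates and lines their 95% intervals. For S34F dox+ against WT dox+ all 3 lines cross 0. ZEB2 is at 1.13 in WT dox+ against WT dox- and at 1.39 in S34F dox+ against S34F dox-. The row for both lines, with ZEB2 at 1.26, is the contrast added after the values had been seen.

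Without doxycycline none of the 3 factors tested passed in any of 3 comparisons. In S34F dox- against WT dox-, where 0.0461% of genes passed, the difference was -0.38 for ZEB1, -0.44 for ZEB2 and 0.07 for SNAI1, each with an adjusted p of 1 from limma. ZEB2 was lower in both WT dox- libraries than in both parental libraries, an order seen in 22.4% of the genes tested. It was also lower in the S34F dox- library than in both parental libraries, an order seen in 36.5%. The fitted difference for ZEB2 was -0.62 in WT dox- against parental (adjusted p = 0.577, against 0.0988% of genes that passed) and -1.06 in S34F dox- against parental (unadjusted p = 0.0578, adjusted p = 0.573, against 0.112%). The unadjusted p of the last was 0.0484 in the fit without a minimum (adjusted p = 0.978). For the same 2 comparisons ZEB1 was at 0.35 and -0.03 and SNAI1 at 0.21 and 0.28, with adjusted p from 0.83 to 1.

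The genes whose levels followed each factor most closely were named by Pearson's r of log2(FPKM + 1) over the 9 libraries, among 11992 protein-coding genes. For ZEB1 they were ONECUT1 (0.984), ZXDC (0.982), EPG5 (0.973), WDR27 (0.957) and APOLD1 (0.955), and the ribosomal protein gene RPL32 ran most opposite (-0.975). For ZEB2 they were TET2 (0.960), ZNF638 (0.959), ZNF528 (0.945), ATRX (0.941) and FAM117B (0.932), with IER3 most opposite (-0.932). For SNAI1 they were MRPL17 (0.955), CLPP (0.944), WDR18 (0.932), CHD1L (0.930) and GATC (0.922), with C2orf43 most opposite (-0.896). Between the factors themselves r was 0.455 for ZEB1 and ZEB2, -0.140 for ZEB1 and SNAI1 and -0.603 for ZEB2 and SNAI1. The named genes are the extremes of 11992, so a less extreme r between preset genes follows from that choice. These values are descriptions over 9 libraries from shared groups, whose estimated relative depth was uneven.

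Splicing was compared in the authors' MISO tables, without replicates. For each event they give the fraction of transcripts that include it (PSI) in S34F and in WT cells. They also give the reads listed for it and a Bayes factor for a difference. ZEB1 had 29 events, of which 21 were skipped exons, 6 were NAGNAG acceptor pairs and 2 were alternative 3′ splice sites. ZEB2 had 7, of which 6 were skipped exons and 1 a NAGNAG pair. SNAI1, SNAI2 and TWIST1 had no event in any of the 5 tables. With a call defined as a Bayes factor of at least 5, a PSI difference of at least 0.10 and at least 10 reads, 0 of the 36 events were called, against 1.18% of all 87763 events and 0.882% of the 29020 events whose reads lay in the same range, 20 to 306.

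The highest Bayes factor in ZEB1 was 1.78, at a NAGNAG pair on chromosome 10 whose 2 acceptor sites lie at 31784705 and 31784708 in GRCh37 coordinates. Its PSI was 0.64 in S34F and 0.34 in WT, with 124 and 164 reads. The same pair joined to another upstream exon had a PSI of 0.66 and 0.39 and a Bayes factor of 0.89, with 129 and 175 reads. The largest difference in ZEB1 was -0.35, at a skipped exon where PSI was 0.25 in S34F and 0.60 in WT (Bayes factor 1.47). PSI was higher in S34F at 14 ZEB1 events and lower at 15, with a median absolute difference of 0.14, against 0.09 for the 29020 events of like reads. In ZEB2 the highest Bayes factor was 1.43, at a skipped exon where PSI was 0.53 in S34F and 0.33 in WT, listed with 48 and 81 reads. With no replicates, the spread of PSI between libraries is unknown. Events of 1 gene share reads, and the 29 ZEB1 events held 19 distinct pairs of read numbers and the 7 ZEB2 events held 2. ZEB2 events far apart on chromosome 2 were listed with the same 48 and 81 reads. The read numbers therefore cannot be taken as reads that tell the 2 forms of an event apart. The 29020 events were chosen by the same kind of read number.

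The reads assigned to the genes in these tables give another measure of their level. The ratio of S34F to WT reads was 128 to 178 for ZEB1, or 0.719, and 48 to 81 for ZEB2, or 0.593, against a median ratio of 0.695 over 17650 genes. Relative to that median, log2 of the ratio was 0.05 for ZEB1 and -0.23 for ZEB2. The log2 ratio of mean FPKM, which comes from the same RNA, was 0.17 for ZEB1 and -0.30 for ZEB2.

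**Figure D3:**
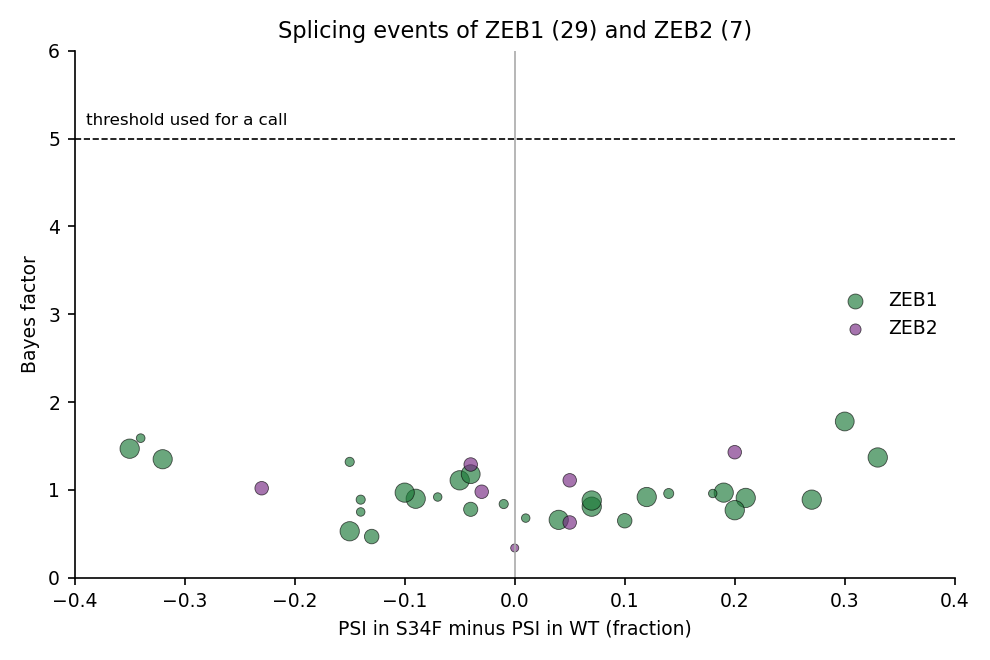
PSI in S34F minus PSI in WT (horizontal axis, as a fraction) against the Bayes factor (vertical axis, linear) for the 29 events of ZEB1 and the 7 of ZEB2. Point area grows with the reads listed for an event and the dashed line is the threshold of 5. The events of both genes stay at or below a Bayes factor of 1.78 while differences run from -0.35 to 0.33.

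The genes through which these factors act were at far higher levels than the factors. All 12 corepressors listed had a mean of at least 1 FPKM, with a median of 52.7 FPKM and the histone deacetylase HDAC2 highest at 140 FPKM. The 22 epithelial targets had a median of 37.1 FPKM, from 4.06 for OVOL1 to 503 for EPCAM, and CDH1 lay between 75.5 and 111 FPKM in every library. Of 12 lung epithelial markers 10 were at 1 FPKM or above in every library, while SFTPB and SFTPC, surfactant proteins, were at low levels. Of the mesenchymal markers, CDH2 (N-cadherin) was at most 0.62 FPKM, whereas AXL, a receptor tyrosine kinase, had a mean of 92 FPKM, FN1 (fibronectin) 78.2 FPKM and VIM (vimentin) 34.8 FPKM. Of 14 other EMT factors 9 had a mean of at least 1 FPKM, led by the E protein TCF3 at 70.6 FPKM.

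**Figure D4:**
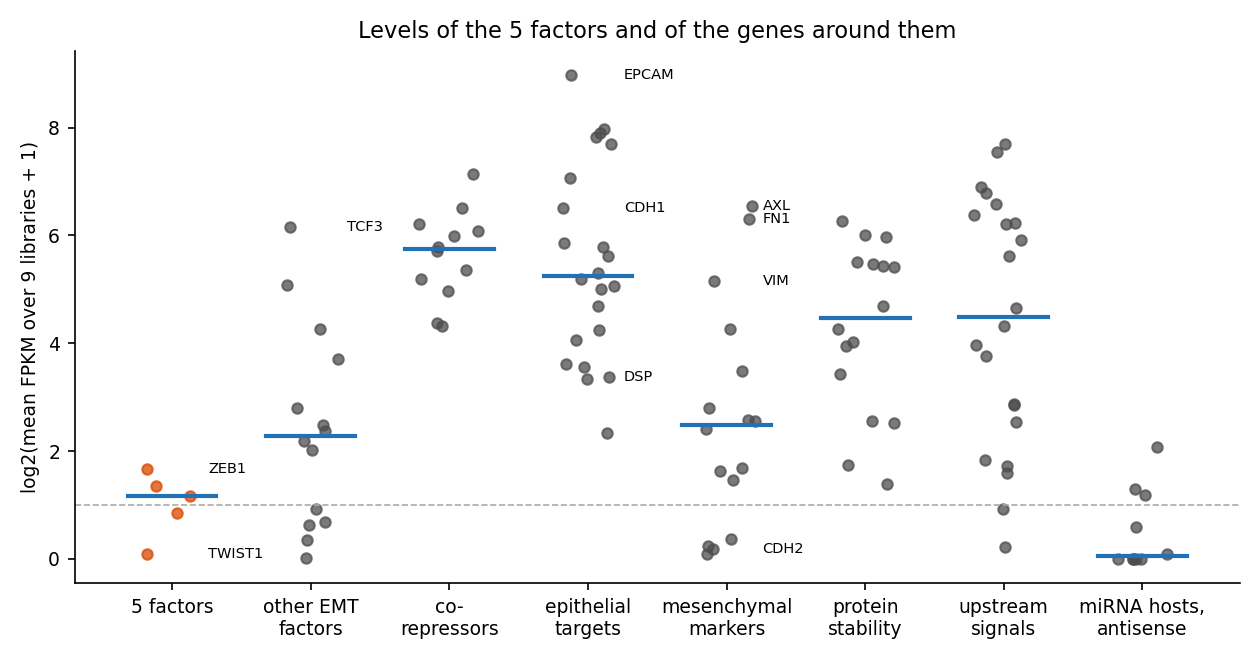
log2(mean FPKM over the 9 libraries + 1) (vertical axis) of the 5 factors, in orange, and of 7 lists of related genes, in grey (horizontal axis). Points are genes, blue bars are list medians and the dashed line marks a mean of 1 FPKM. The 5 factors lie between 0.0711 and 2.19 FPKM, below the medians of the corepressors (52.7 FPKM) and the epithelial targets (37.1 FPKM).

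Between S34F dox+ and WT dox+, no gene of the 7 lists passed an adjusted p of 0.05. Among the 22 epithelial targets 17 had a higher and 5 a lower value in S34F dox+, with a median difference of 0.11 against 0.03 over all genes tested, of which 55.2% were higher. With TPM the split was 11 and 11, at a median of -0.0043 against -0.07 over all genes, of which 37.4% were higher. In the FPKM fit DSP and OCLN passed in that direction at an unadjusted p of 0.05, as did 4.01% of all genes. DSP was 19.29 and 21.9 FPKM in S34F dox+ and 4.63 and 5.40 FPKM in WT dox+. The 2 groups lay far apart, at a difference of 1.84 (SE 0.21, adjusted p = 0.0589 from limma), which passed with protein-coding genes only (adjusted p = 0.0159) and with quantile normalization (adjusted p = 0.0487). DSP was also 17.2 FPKM in the S34F dox- library, against 4.93 and 2.98 FPKM in WT dox- and 4.23 and 4.13 FPKM in the parental line. OCLN was 277 and 248 FPKM in S34F dox+ and 201 and 204 FPKM in WT dox+, a difference of 0.37 (SE 0.11, adjusted p = 0.555). CRB3, a polarity protein with 5 E-boxes in its promoter window, differed by 0.46 (SE 0.23, adjusted p = 0.759), or by 0.22 when WT dox+ lost replicate 2 and 0.70 when it lost replicate 1. CDH1 was 111 and 92.2 FPKM in S34F dox+ and 102 and 84.4 FPKM in WT dox+, which overlapped, with a difference of 0.13 (SE 0.15, adjusted p = 0.911).

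Of the 12 mesenchymal markers tested, VIM, TNC and FN1 had an unadjusted p under 0.05 in the direction of S34F dox+ and AXL in the other, which 4.01% and 2.77% of all genes had. VIM was 73.2 and 66.2 FPKM in S34F dox+ and 27.8 and 28.1 FPKM in WT dox+, and the S34F dox- library, at 42.1 FPKM, was above both WT dox- libraries, at 19.9 and 12.1 FPKM. The difference for VIM was 1.29 with doxycycline (SE 0.20, adjusted p = 0.234 from limma) and 1.38 without it (SE 0.25, adjusted p = 0.441). TNC (tenascin) was 11.2 and 9.14 FPKM in S34F dox+, 2.90 and 3.96 FPKM in WT dox+, 7.55 FPKM in S34F dox- and 3.09 and 2.08 FPKM in WT dox-. The parental line, at 7.22 and 6.34 FPKM, lay near S34F dox- for TNC, whereas for DSP and VIM it lay within the range of the WT line. TNC had a difference of 1.34 with doxycycline (SE 0.22, adjusted p = 0.282) and 1.27 without it (SE 0.27, adjusted p = 0.759). DSP differed by 1.91 between the uninduced lines (SE 0.26, adjusted p = 0.131). FN1 differed by 0.49 with doxycycline (SE 0.14, adjusted p = 0.546) and by -0.06 without it, and AXL by -0.37 with it (SE 0.12, adjusted p = 0.619).

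In the other lists no gene passed even at an unadjusted p of 0.05. The lowest p in the other EMT factors belonged to FOXC2, a forkhead factor, which was 1.85 and 2.24 FPKM in S34F dox+ and 2.76 and 2.68 FPKM in WT dox+ (difference -0.29, adjusted p = 0.819 from limma). FOXC2 was highest in WT dox-, at 6.71 and 6.89 FPKM. It was followed by FOXC1 (0.26) and SOX4 (0.21). Among corepressors the lowest p belonged to HDAC1 (-0.18), SIN3A (-0.19) and the polycomb subunit EED (-0.13). Among regulators of the stability of the factors they were COPS2 (-0.45), the ubiquitin ligase SIAH2 (0.36) and the F-box protein FBXL14 (0.26). COPS2 was -0.79 when S34F dox+ lost replicate 1 and -0.10 when it lost replicate 2. Among upstream signals they were SMAD3 (-0.20), which transduces TGF-beta, TGFB2 (-0.46), a ligand, and the NF-kB subunit RELA (0.23). TGFB2 was -0.69 when WT dox+ lost replicate 1 and -0.23 when it lost replicate 2. ZEB1-AS1 was 3.26 and 4.93 FPKM in WT dox+ and 5.74 and 2.34 FPKM in S34F dox+ (difference -0.08, adjusted p = 0.988). A start of ZEB1 and a start of ZEB1-AS1 lie 121 bases apart in RefSeq, on opposite strands and pointing away from each other. The strand setting of the counting is not stated. Where transcripts of the 2 genes overlap, their reads may therefore not have been told apart.

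The mean of the doxycycline responses, the contrast added after the values were seen, held 5 of the 94 list genes tested (5.32%) at an adjusted p of 0.05, beside 3.88% of all genes tested. FN1 was higher by 1.12 (adjusted p = 0.0066), VIM by 0.76 (adjusted p = 0.0489) and the epithelial factor ELF3 by 0.56 (adjusted p = 0.0434), all from limma. In settings other than leaving out 1 library, FN1 passed in 11 of 11, ELF3 in 6 of 11 and VIM in 4 of 11. FOXC2 was lower (-0.87, adjusted p = 0.0375), as was the AP-1 subunit FOSL1 (-1.21, adjusted p = 0.0066). In the same settings FOXC2 passed in 7 of 10 and FOSL1 in 11 of 11. For FOSL1 the parental libraries were at 151 and 183 FPKM, against 127 to 157 FPKM in dox+ and 283 to 367 FPKM in dox-. For FOXC2 they were at 2.61 and 2.41 FPKM, against 1.85 to 2.76 and 3.83 to 6.89 FPKM. For ELF3 they were at 289 and 295 FPKM, against 253 to 294 and 171 to 227 FPKM. Parental FN1 (36.6 and 43.3 FPKM) and VIM (22 and 22.3 FPKM) lay in or below the dox- range. As each of 8 libraries was left out, the adjusted p stayed under 0.05 in 6 fits for FN1, 5 for FOSL1, 2 for VIM, 1 for ELF3 and 0 for FOXC2, with the directions kept and the highest at 0.159. In S34F dox+ against S34F dox-, a planned comparison with 1 uninduced library, FN1 (1.40, SE 0.17, adjusted p = 0.0319 from limma) and FOSL1 (-1.36, SE 0.18, adjusted p = 0.0385) passed among the 94 list genes, or 2.13%, beside 0.283% of all genes tested. Neither passed in any of 8 fits that left out a library, where the adjusted p was 0.082 to 0.133 for FN1 and 0.0989 to 0.180 for FOSL1. U2AF1 itself, the induced gene, was 278 and 299 FPKM in WT dox+, 164 and 223 FPKM in S34F dox+ and 103 to 115 FPKM in the others. The difference between S34F dox+ and WT dox+ was -0.59 (SE 0.15, unadjusted p = 0.00489, adjusted p = 0.531 from limma). The part of U2AF1 level in the other differences was not tested.

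Several genes of the lists had called splicing events. SNAI1, SNAI2 and TWIST1 had no event that could be called. ZEB1 and ZEB2 had 0 called of 36 events, too few to set them apart from the share of 1.18% over all events. TCF3, whose products pair with TWIST1, had a skipped exon whose PSI was 0.46 in S34F and 0.71 in WT (Bayes factor 575, listed with 1600 and 2271 reads). TCF4, another E protein, had an alternative 5′ splice site with a PSI of 0.22 and 0.83 (Bayes factor 6.81) and a retained intron with a PSI of 0.24 and 0.64 (Bayes factor 12.5). The corepressors had 0 called of 96 events, the other EMT factors 3 of 71, the epithelial targets 2 of 140, in ESRP1 and OVOL2, the mesenchymal markers 4 of 95, in FN1 and TNC, the upstream signals 2 of 123, in HIF1A and YAP1, and the stability regulators 1 of 80, in ATM. These shares stand beside 1.18% of all events. The called events of TCF4, a gene of like read numbers to ZEB1, were listed with 95 and 201 and with 122 and 228 reads.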

How the data were processed

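RNA-Seq was performed on 9 HCC78 libraries prepared from total RNA with a stranded kit. The authors aligned reads with STAR and computed gene-level FPKM and TPM with RSEM 1.2.29 on GRCh37/hg19, and the deposited table was used as FPKM, with TPM as an alternative. The 9 libraries kept their own columns, without counts, so only a relative depth per library could be estimated. Splicing values were deposited by the authors from MISO as PSI, a fraction between 0 and 1, with a Bayes factor score and read counts per event. How replicates entered MISO is not stated, nor whether the cells had received doxycycline. The S34F side was read as the first from the table's name. For alternative splice site events with several isoforms the deposited PSI is a list of values.

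The members, lists and tests were chosen with earlier results of these data known. Log2(FPKM + 1) was fitted with limma 3.58.1 in R 4.3.3 (limma-trend, 5 groups, two-sided tests, Benjamini-Hochberg adjustment) for the 15179 genes whose mean reached 1 FPKM. The fit was tested on simulated data. Exact permutation tests used scipy 1.17.1. All 5 factors are named throughout, and from each list the genes with an adjusted p under 0.05 between S34F dox+ and WT dox+ or, where there were none, up to 3 with the lowest p. CDH1, VIM and U2AF1 are always named, and further genes were picked with their values in view. For each factor with a mean of at least 1 FPKM, the 5 genes most like it and the 1 least like it are named. Alternatives covered the pseudocount, the minimum, scaling, TPM, protein-coding genes only, the libraries in the fit, a replicate block, array weights and thresholds on events. Promoter and microRNA sequences came from RefSeq (GRCh38.p14), whose coordinates were not combined with those of the splicing tables. The 2 iCLIP samples, which measured U2AF1 binding, were not analysed here.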

Additional observations from a re-analysis of the deposited data

How the results depend on the processing

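ZEB1, ZEB2 and SNAI1 did not pass an adjusted p of 0.05 in the 7 planned comparisons under the alternatives run, nor did SNAI2 and TWIST1 in S34F dox+ against WT dox+, and no ZEB1 or ZEB2 splicing event was called with a Bayes factor of at least 2 or 20, a PSI difference of at least 0.20, 10 reads in each condition or no read minimum. In the added contrast of dox+ with dox-, 1 factor, ZEB2, passed with a pseudocount of 0.1 FPKM and 1, again ZEB2, with protein-coding genes only. Between S34F dox+ and WT dox+, in the 7 lists 1 gene, DSP, passed with quantile normalization and 1, again DSP, with protein-coding genes only. As single libraries were left out, the difference between S34F dox+ and WT dox+ lay between -0.73 and 0.67 for ZEB1, -0.49 and 0.12 for ZEB2, -0.14 and 0.30 for SNAI2, -0.19 and 0.12 for TWIST1, -0.0064 and 0.43 for SOX4, -0.76 and 1.54 for MIR205HG, -0.18 and 0.44 for SNAI3-AS1, -0.59 and 0.42 for ZEB1-AS1 and -0.0081 and 0.26 for CDH1. The difference of the responses lay between -0.35 and 1.05 for ZEB1 and -0.043 and 0.57 for ZEB2, SNAI1 in S34F dox- against WT dox- between -0.027 and 0.17, and ZEB1 between -0.047 and 0.75 in WT dox- against parental and between -0.42 and 0.37 in S34F dox- against parental. With quantile normalization the sign turned for ZEB2 in the difference of the responses (-0.049), for ZEB1 in S34F dox- against parental (0.13), and for SNAI2 in S34F dox+ against WT dox+ (-0.022) and in the added contrast (-0.24). ZEB1 in S34F dox- against parental was also 0.045 with a pseudocount of 0.1 FPKM and 0.039 with TPM, and TWIST1 between S34F dox+ and WT dox+ was 0.0042 with the smaller pseudocount.

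Replicate numbers did not pair the libraries (correlations of deviations from -0.0756 to 0.0374), and with the replicate block SNAI1 in S34F dox- against WT dox- was -0.091 while no factor passed. Over all genes, calls between S34F dox+ and WT dox+ numbered 8 and ranged from 0 with only the 4 dox+ libraries to 29 without S34F dox+ replicate 1, and those of the added contrast numbered 589 and ranged from 10 without WT dox+ replicate 2 to 789 with protein-coding genes only. With TPM the split between S34F dox+ and WT dox+ turned from 55.2% of genes higher to 37.4%, and the median over all genes moved from 0.03 to -0.07. In the added contrast quantile normalization moved that median from 0.08 to -0.04. The causes were not tested. Levels near 1 FPKM in groups of 2 libraries limit all comparisons of the 5 factors.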
